A study of Picea abies with 36 samples.

Results

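The response of the Norway spruce (Picea abies) hypocotyl to an auxin and a cytokinin applied together was examined 15 days after application, by comparing the 3 BAP+IAA libraries of day 15 with the 3 mock libraries of that day over all genes. These are 6 of the 36 RNA-seq libraries of the series, chosen by their labels and not by any measured value. Of the 70736 genes in the table, 38732 had enough counts to be tested. All plants were young wild-type (WT) seedlings from the seed source FP-518 TreO G7 Söregärde, and each library pooled several plants, of which the middle part of the hypocotyl, the seedling stem under the cotyledons, was taken. The BAP+IAA group received both hormones in lanolin under a foil wrap, namely IAA (indole-3-acetic acid, the main natural auxin) at 50 mM and BAP (6-benzylaminopurine, a synthetic cytokinin) at 135 mM. The labels of the mock group give no more than the word mock. Groups with IAA alone, with BAP alone and the same treatments on days 5 and 10 served for further comparisons, again with 3 libraries each. The unit of the BAP dose differs between the methods of the study (mM) and a figure legend (µM), which leaves the applied dose uncertain, and the length of tissue is also stated in more than one way.

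Auxin and cytokinin together set the balance between division, differentiation and regeneration in plant tissues, and their joint application induces callus in many species. In stems, auxin acts through AUX/IAA repressors and auxin response factors and is a main signal for vascular tissue, while cytokinin acts through response regulators and maintains the cambium. Xylem cells deposit a secondary wall whose lignin is polymerised from monolignols by laccases and class III peroxidases. The comparison therefore asks which genes of hormone signalling, of the cell wall and of other groups stood at a different level after 15 days of both hormones.

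Total counts in the 6 libraries ranged from 14115014 to 17112515, and 41719 to 43073 genes had at least 1 count. Levels are given as CPM, counts scaled to a common library size after TMM normalisation, and log2 fold changes are those of edgeR's quasi-likelihood fit. Calls required P below 0.05 after Benjamini-Hochberg adjustment together with a log2 fold change above 1 or below -1. Pairs of BAP+IAA libraries differed by a root mean square of 0.647 to 0.677 in log2 CPM and pairs of mock libraries by 0.612 to 0.646. Between the groups it was 1.45 to 1.53, so no library stood with the other group. P-values rest on the spread between pooled samples within groups, estimated over all 36 libraries of the series and not over these 6 alone.

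Of the 38732 genes, 4402 (11.4%) were higher and 4339 (11.2%) lower under BAP+IAA. The median log2 fold change of all tested genes was 0.02, so the scaling put the bulk of genes at no change. Genes called higher held 13.8% to 14.4% of all counts in the BAP+IAA libraries and 3.28% to 3.58% in the mock libraries. Genes called lower held 5.77% to 6.07% against 20.3% to 20.7%. The median log2 fold change was 2.53 among genes called higher and -2.04 among genes called lower. Above a log2 fold change of 3 there were 1862 higher genes, and below -3 there were 1196 lower genes. Above 5 and below -5 there were 891 and 399. Of the genes called higher, 4198 had all BAP+IAA libraries above all mock libraries, and of those called lower 4224 had all of them below. Such a separation in either direction was present in 52.5% of all tested genes. The mock libraries were all at 0 in 471 of the genes called higher, and the BAP+IAA libraries were all at 0 in 179 of the genes called lower.

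**Figure D1:**
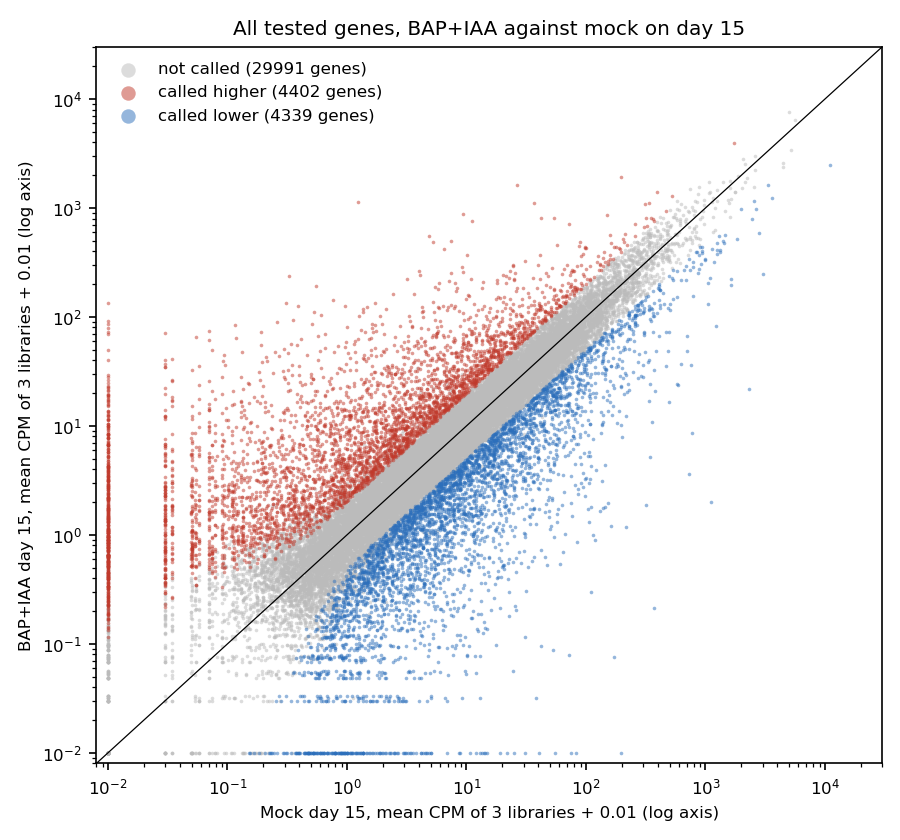
Mean CPM of each of the 38732 tested genes in the 3 mock libraries (x axis) and the 3 BAP+IAA libraries (y axis) of day 15, both on log axes after adding 0.01, with genes called higher in red, called lower in blue and not called in grey. Genes on the line have equal means, the 4402 red and 4339 blue genes lie on both sides of it over the whole range of levels, and the strips along the left and lower edges are genes listed at 0 in 1 group.

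Several of the genes with large changes were at 0 in 1 group. For a gene at 0 in every library of a group, the fold is a lower bound computed against 3 counts over the group, and the fitted log2 value is no bound. The bound uses counts pooled over the libraries of the other group, so 1 high library can dominate it. A gene described as HOTHEAD-like, the name of an Arabidopsis oxidoreductase family with roles in the plant surface, had 112, 37.3 and 70.8 CPM under BAP+IAA and 0 in all mock libraries (MA_10307468g0010, at least 1180-fold higher, adjusted P = 4.82e-06). An isoeugenol synthase 1-like gene, a type of enzyme that makes volatile phenylpropenes, had 49.3, 50.7 and 50.0 CPM against 0 in all mock libraries (MA_10430372g0010, at least 785-fold higher, adjusted P = 4.55e-06). On day 10 the mock libraries had 8.29, 1.69 and 0 CPM of this gene. A heat stress transcription factor B-4b-like gene had 19.5, 10.9 and 15.1 CPM against 0 (MA_11527g0010, at least 242-fold higher, adjusted P = 1.75e-07). In each of these the treated libraries were all well above 0, and the first varied most between them.

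Other genes absent from the mock libraries were uneven among the treated ones. A pair of beta-glucosidase 12-like genes (MA_10344118g0010 and MA_10394370g0010) had 53.0, 1.53 and 4.75 CPM and 50.8, 0.664 and 3.30 CPM, so BAP+IAA replicate 1 held most of both. They were at least 335-fold and at least 311-fold higher, and neither was called in a fit on the 6 libraries alone (adjusted P = 0.0610 and 0.0824). A probable inositol oxygenase, an enzyme that turns inositol into a precursor of wall sugars, had 29.5, 6.10 and 1.93 CPM (MA_196195g0010, at least 210-fold higher). The 2 strongest genes without a description were MA_1830g0010, with 146, 51.0 and 203 CPM, and MA_17608g0020, with 55.9, 85.0 and 135 CPM, against 0 in all mock libraries. They were at least 2090-fold and at least 1420-fold higher, and both were at or near 0 also with a single hormone: their means were 0 under IAA and 1.10 ± 1.64 and 0.0205 ± 0.0355 CPM under BAP (SD, n = 3). In the opposite direction, MA_224931g0010 had 194, 170 and 220 CPM and MA_401686g0010 had 90.6, 65.5 and 92.7 CPM in the mock libraries. Both were at 0 in all BAP+IAA libraries, at least 3010-fold and at least 1280-fold lower.

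Laccases, the copper enzymes that oxidise monolignols in the wall, made up 8 of the 10 described genes that fell most. Of the genes called lower, 286 had a description and 4053 had none. Descriptions came mainly from tables of raised genes and from the lists of the study, so this ranking depends on which genes are described. Over the laccase list of the study, 39 of 62 tested members were lower and 9 were higher, against 11.2% and 11.4% of all genes. The median log2 fold change was -3.94, or -3.55 with members at 0 in a group set to their bound, against 0.02 over all genes. Of the 39 lower members, 35 had a log2 fold change below -3, all 39 had every BAP+IAA library below every mock library, and 10 were at 0 in all BAP+IAA libraries. The count of higher members rose to 14 without mock day 15 replicate 1. Of the 72 listed genes, 10 had too few counts to be tested. The members summed to 650, 566 and 624 CPM under BAP+IAA and to 3290, 2600 and 2840 CPM in the mock libraries, with no overlap. The treatment of reads with several alignments is not stated, so the division of counts between near-identical members is uncertain, and 1 listed gene is described as a pectinesterase.

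Among the members, AF132123_1laccase (MA_10435604g0010) had 1.35, 1.92 and 2.75 CPM under BAP+IAA and 1270, 978 and 1090 CPM in the mock libraries. On the log2 scale this was -9.12 (SE 0.85, adjusted P = 2.36e-09). A gene described as Multicopper type 1 (MA_10431084g0010) was at 0 in all BAP+IAA libraries and had 54.8, 57.6 and 52.0 CPM in the mock libraries, at least 854-fold lower (adjusted P = 1.30e-11). For MA_57140g0010, 2 counts were found in all over the BAP+IAA libraries, and the mock libraries had 29.1, 20.2 and 24.5 CPM. This is a ratio of 574 with a counting interval from 159 to 4750. The laccase-17 gene MA_11289g0010 also had 2 counts in all under BAP+IAA, against 12.1, 10.2 and 6.98 CPM, a ratio of 232 with an interval from 63.7 to 1920. The other laccases of that group (MA_132857g0010, MA_8866650g0010, MA_10435226g0010 and MA_98859g0010) were at 0 in all BAP+IAA libraries and at least 70.3-fold, 65.0-fold, 39.6-fold and 35.3-fold lower.

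**Figure D2:**
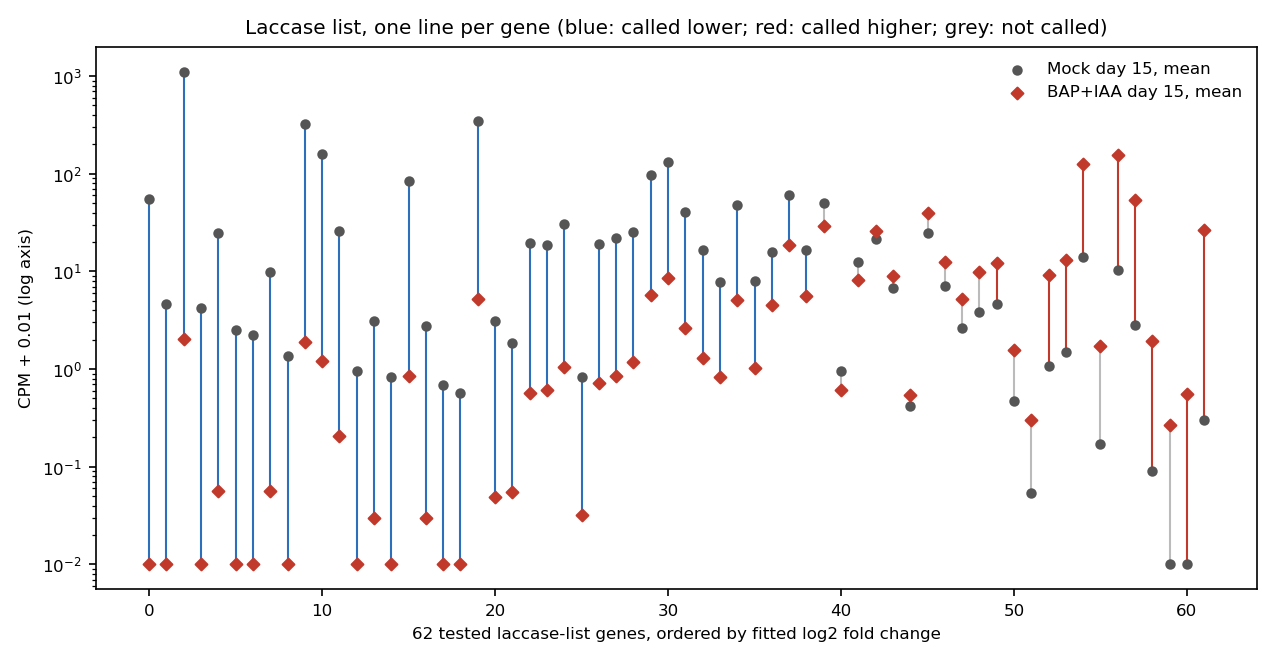
Mean CPM (log axis, after adding 0.01) of the 62 tested laccase genes in the mock libraries (grey points) and the BAP+IAA libraries (red diamonds) of day 15, ordered by fitted log2 fold change. Blue lines join the 39 members called lower, red lines the 9 called higher and grey lines the 14 not called, and the diamonds at the lower edge are members at 0 under BAP+IAA.

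The laccase that the study names, PaLAC1-like (MA_75861g0010), went the other way. It had 20.7, 25.1 and 34.3 CPM under BAP+IAA and 0.656, 0 and 0.216 CPM in the mock libraries, which is 6.46 on the log2 scale (SE 1.03, adjusted P = 1.10e-05). Of the 9 laccases that were higher, 8 had a log2 fold change above 3. Among them, MA_170004g0010 had 4.81, 0.531 and 0.482 CPM against 0.239, 0 and 0 CPM (log2 fold change 4.45, adjusted P = 0.0240). That call rested on single libraries. It did not hold without BAP+IAA day 15 replicate 1 (2.48, adjusted P = 0.364), without mock day 15 replicate 2 (3.88, adjusted P = 0.0792) and without mock day 15 replicate 3 (3.98, adjusted P = 0.0697).

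PaVND4-like (MA_6777g0010), a homologue of the VND factors that switch on vessel differentiation in Arabidopsis, fell as well. It had 4.93, 11.5 and 10.3 CPM under BAP+IAA and 82.5, 75.0 and 79.4 CPM in the mock libraries, which is -3.15 on the log2 scale (SE 0.28, adjusted P = 5.60e-10). PaPRX66-like (MA_10431507g0020), a peroxidase that the study also takes as a xylem gene, rose: 1.99, 3.05 and 7.02 CPM against 0.179, 0.243 and 0.144 CPM, or 4.34 on the log2 scale (SE 0.69, adjusted P = 8.61e-06). Both genes separated the groups without overlap, in opposite directions. In bulk tissue, fewer cells of a type and less RNA per cell cannot be told apart.

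The other groups of genes were collected by key words in gene descriptions from the tables of the study. Of the tested genes, 3614 had a description. Most of these descriptions come from tables of genes raised by IAA or raised soon after grafting, so the lists lean upward by their source. The IAA tables were made against mock libraries of this same series. Members from them were therefore partly chosen on values compared here, and their higher counts are no independent evidence of a direction. Of all described genes, 33.5% were higher and 7.91% lower, with a median log2 fold change of 0.71. Of the 1288 described genes outside the hormone tables, 15.6% were higher and 14.8% lower. The counts below stand against these shares as well as against 11.4% and 11.2% of all genes. The lists of laccases, PMEs, beta-1,4-glucanases, lyases and graft transcription factors are complete lists of the study, although the last was chosen there on graft libraries and is no independent evidence of a direction.

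Class III peroxidases, secreted enzymes that share the oxidation of monolignols with laccases and also act in wall stiffening and defence, were called higher in 34 of 53 tested members and lower in 1. The median log2 fold change was 3.15, or 2.34 with members at 0 set to their bound. The members summed to 1960, 1690 and 1670 CPM under BAP+IAA and to 177, 251 and 233 CPM in the mock libraries. Of the 5 members outside the hormone tables, 3 were higher and 0 lower. A peroxidase 4-like gene (MA_10430578g0010) had 17.6, 16.7 and 18.7 CPM, and its mock libraries had 0, 0 and 0.144 CPM, a ratio of 416 with a counting interval from 115 to 3440. A peroxidase 5-like gene (MA_10435488g0010) had 16.8, 0.464 and 3.58 CPM against 0 in all mock libraries, at least 117-fold higher, with most of its signal in BAP+IAA replicate 1 and an adjusted P of 0.0550 in the fit on 6 libraries by edgeR. The member that fell was peroxidase 12-like (MA_10432033g0020), with 0.704, 0.133 and 0.620 CPM against 2.74, 1.52 and 2.74 CPM (log2 fold change -2.22, adjusted P = 0.00459).

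Dirigent proteins, which steer the coupling of monolignol radicals in lignan formation, were higher in 14 of 20 members and lower in 1 (median 2.77). Dirigent 11-like MA_10436019g0020 had 12.6, 10.9 and 7.50 CPM against 0 in all mock libraries, at least 164-fold higher. The lower member, MA_10434362g0010, had 12.6, 9.89 and 4.82 CPM against 51.8, 36.4 and 44.7 CPM (log2 fold change -2.28, adjusted P = 2.76e-06).

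Genes of monolignol synthesis itself were mixed, with 10 of 36 members higher, 4 lower and 22 not called. The median log2 fold change was 0.31, whereas the summed level was lower, at 2590, 2700 and 3090 CPM under BAP+IAA against 3830, 3490 and 3830 CPM. Cinnamate 4-hydroxylase, an early step of the pathway, appeared in both directions. The copy MA_10435536g0010 had 98.9, 101 and 159 CPM against 2.74, 0.486 and 0.792 CPM, or 6.44 on the log2 scale (SE 0.84, adjusted P = 5.76e-07). The copies MA_130482g0010 and MA_118702g0010, named after their values were seen, fell by 1.39 and 1.22 on the log2 scale, from means of 1260 and 1300 CPM to 478 and 558 CPM. An arogenate dehydratase, which makes the phenylalanine that feeds the pathway, had 3.05, 2.85 and 2.07 CPM against 30.8, 25.9 and 30.7 CPM (MA_14041g0010, log2 fold change -3.45, SE 0.45, adjusted P = 4.56e-07). A gene described as cinnamate 4- (MA_10159692g0010) had 0.587, 2.12 and 2.27 CPM against 17.7, 7.83 and 13.5 CPM (adjusted P = 0.0214). It was no longer called without BAP+IAA day 15 replicate 1 (adjusted P = 0.0881) and without mock day 15 replicate 1 (adjusted P = 0.0594).

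Enzymes that act on pectin and on glucans changed in both directions. Pectin methyl esterases (PMEs), which remove methyl groups from pectin and so alter the stiffness of the wall, were higher in 17 of 55 members and lower in 8 (median 0.36). PaPME5-like (MA_10267810g0010) had 21.9, 15.9 and 19.2 CPM against 8.29, 8.32 and 8.28 CPM (log2 fold change 1.20, SE 0.17, adjusted P = 1.94e-06). The pectinesterase-like gene MA_133919g0010 had 6.57, 5.71 and 10.2 CPM against 0, 0.243 and 0 CPM (log2 fold change 6.34, adjusted P = 2.31e-06). Pectinesterase 11 (MA_87592g0010) had 8.21, 0.133 and 3.85 CPM against 0.179, 0 and 0 CPM, and its groups overlapped. The members MA_648837g0010 and MA_53377g0010 were at 0 in all BAP+IAA libraries and at least 68.3-fold and 57.7-fold lower.

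Beta-1,4-glucanases, which trim cellulose and related glucans, were higher in 8 of 23 members and lower in 5 (median 0.11), and without BAP+IAA day 15 replicate 2 the lower count was 3. PaKOR1-like (MA_69345g0010), named after a membrane glucanase needed for cellulose synthesis in Arabidopsis, had 46.8, 30.3 and 37.8 CPM against 5.01, 9.59 and 10.5 CPM (log2 fold change 2.20, SE 0.35, adjusted P = 1.27e-05). Endoglucanase 17-like MA_14604g0010 had 7.45, 5.84 and 18.6 CPM against 0.298, 0.0607 and 0.0720 CPM (log2 fold change 6.09, adjusted P = 1.95e-05). Neither gene overlapped between the groups.

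Pectate and pectin lyases, which cut pectin chains and loosen contacts between cells, were higher in 13 of 32 members and lower in 6 (median 0.69). PaPECTIN LYASE-like (MA_6752784g0010) had 17.0, 4.98 and 12.9 CPM against 0.894, 0.304 and 0.360 CPM, or 4.44 on the log2 scale (SE 0.73, adjusted P = 1.74e-05). A pair of neighbouring IDs, both described as probable pectate lyase 8, went opposite ways. MA_10437227g0020 had 24.1, 28.7 and 65.9 CPM against 1.07, 1.40 and 1.80 CPM (log2 fold change 4.80), and MA_10437227g0030 had 1.58, 1.39 and 0.344 CPM against 17.6, 18.7 and 15.6 CPM (log2 fold change -3.93).

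Expansins, which loosen walls during growth, were higher in 10 of 20 members and lower in 1 (median 2.80, or 2.28 with bounds). Of the 5 expansins outside the hormone tables, 0 were higher and 1 lower. Expansin 3 (MA_10299189g0010) had 68.3, 52.5 and 125 CPM against 2.68, 3.76 and 3.96 CPM (log2 fold change 4.56, SE 0.34, adjusted P = 3.30e-11). Expansin A4 (MA_134592g0010) fell, with 1.06, 1.13 and 2.41 CPM against 3.10, 6.25 and 3.96 CPM (log2 fold change -1.54, adjusted P = 6.32e-04). Polygalacturonases, which cut the backbone of pectin, were higher in 7 of 11 members and lower in 1, and without BAP+IAA day 15 replicate 1 the lower one (MA_10862g0010) had a log2 fold change of -0.93 and was not called. Xyloglucan endotransglucosylases, which rejoin the xyloglucan tethers of growing walls, were higher in 5 of 13 and lower in 1. Their median was 0.21, and it was -0.10 without BAP+IAA day 15 replicate 3 and 0.43 without mock day 15 replicate 3. The lower member, MA_10433908g0010, had 16.5, 18.8 and 13.8 CPM against 19.3, 27.4 and 84.3 CPM. Without mock day 15 replicate 3 its log2 fold change went from -1.41 to -0.51 (adjusted P = 0.517), and it was also lost without BAP+IAA replicates 1, 2 or 3 (adjusted P = 0.101, 0.0800 and 0.132).

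**Figure D3:**
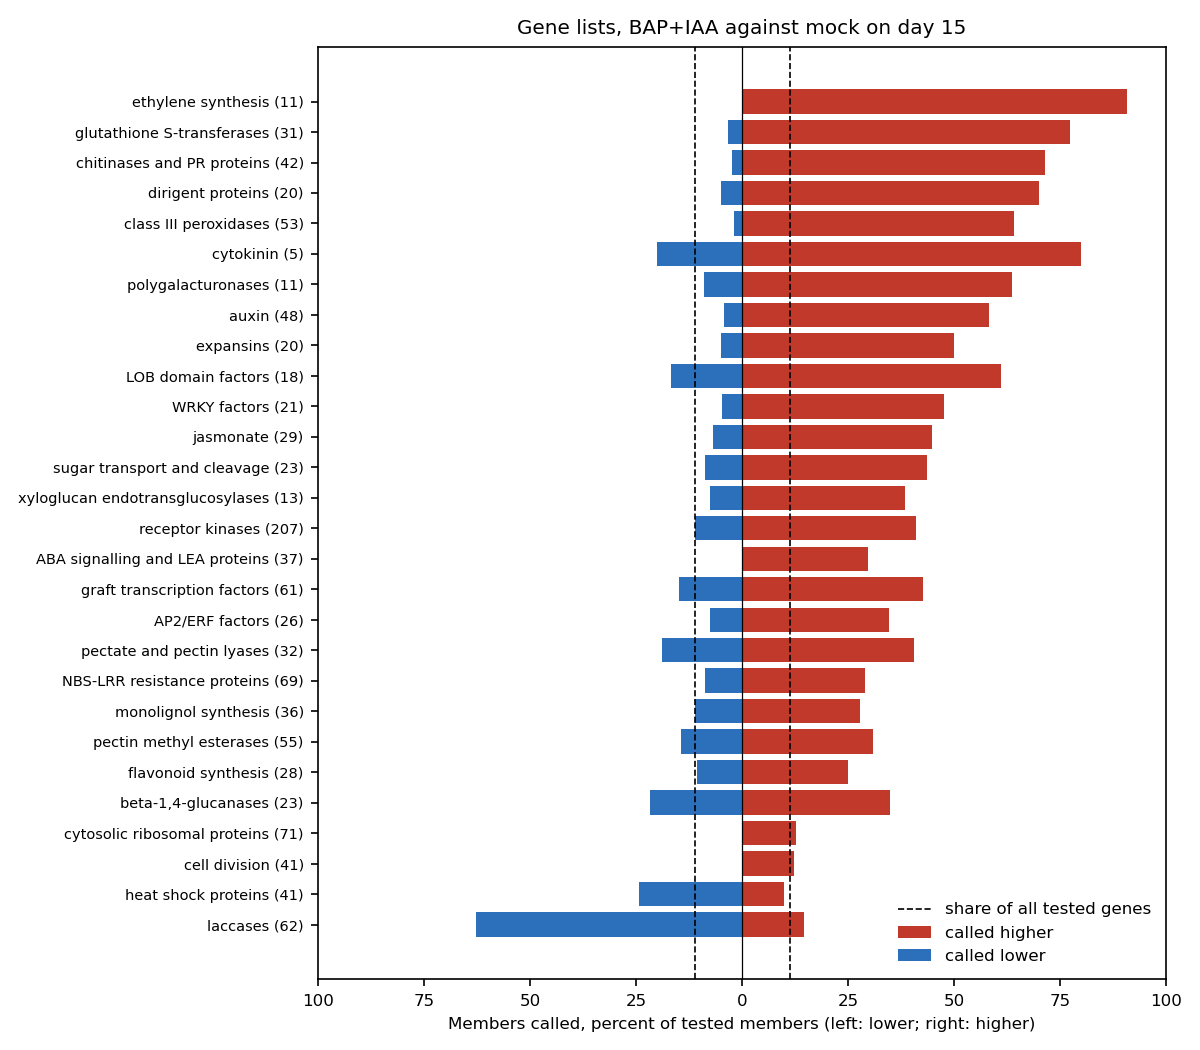
Share of the tested members of each gene list called higher (red, right) and called lower (blue, left) under BAP+IAA against mock on day 15, in percent, with the number of tested members in brackets. Dashed lines mark the shares of all tested genes, 11.4% higher and 11.2% lower, and laccases and heat shock proteins are the lists whose lower share exceeds the higher share.

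Genes of auxin response and transport were higher in 28 of 48 members and lower in 2 (median 1.48). All but 5 of the members come from the hormone tables of the study. The list summed to 3040, 2810 and 2580 CPM under BAP+IAA and to 1030, 1080 and 1040 CPM in the mock libraries. Auxin transporter 2 (MA_131574g0010), of the family that carries auxin into cells, had 176, 172 and 51.4 CPM against 0.179, 0.425 and 0.288 CPM (log2 fold change 8.77, SE 1.45, adjusted P = 1.99e-05), and BAP+IAA replicate 3 was the lowest of the treated libraries. An indole-3-acetate O-methyltransferase, which methylates IAA, had 2.82, 3.12 and 4.96 CPM against 0 in all mock libraries (MA_13253g0010, at least 56.3-fold higher). Genes for indole-3-acetic acid-amido synthetases, the GH3 enzymes that inactivate IAA by joining it to amino acids, were among the members that rose and are named after their values were seen. MA_10434772g0010 rose from a mean of 5.23 to 492 CPM (log2 fold change 6.55), and MA_10330250g0010 from 0.248 to 90.6 CPM (8.55).

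The 2 auxin genes that fell were IAA26-like (MA_18664g0010), of the AUX/IAA repressor family, and an auxin-induced 15A-like gene (MA_10433051g0010). The first had 24.3, 20.0 and 16.8 CPM against 59.0, 42.4 and 50.7 CPM (log2 fold change -1.31, adjusted P = 3.71e-06), while other AUX/IAA members rose, such as IAA11 MA_10431605g0010, named after its value was seen, from 7.21 to 74.6 CPM (log2 fold change 3.37). The second was not called without BAP+IAA day 15 replicate 2 (log2 fold change -1.28, adjusted P = 0.0988).

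Only 5 cytokinin genes could be tested, of which 4 were higher and 1 lower. None of them lies outside the hormone tables. Response regulator 1 (MA_23430g0010), of the family through which cytokinin signals, had 6.69, 6.37 and 3.79 CPM against 1.97, 2.12 and 1.51 CPM (log2 fold change 1.58, SE 0.31, adjusted P = 1.21e-04). Cytokinin dehydrogenase 7 (MA_10432877g0010), an enzyme that degrades cytokinins, had 4.46, 1.33 and 0.688 CPM against 1 count over the mock libraries. The gene that fell, a cytokinin riboside monophosphate phosphoribohydrolase that activates cytokinins (MA_12058g0010), had 1.17, 0.664 and 1.72 CPM against 4.05, 3.16 and 2.66 CPM (log2 fold change -1.47, adjusted P = 0.00189). In these genes the groups did not overlap.

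Of the genes of ethylene synthesis, 10 of 11 members were higher and none lower (median 2.66). The 1 member outside the hormone tables was not called. The member not called was an ACC synthase (MA_10425896g0010, log2 fold change 2.27, adjusted P = 0.0633), named after its value was seen. ACC synthase makes the precursor of ethylene and ACC oxidase converts it. The list summed to 51.0, 46.6 and 82.9 CPM against 3.28, 5.71 and 5.98 CPM. ACC synthase 3-like (MA_17005g0010) had 12.4, 9.75 and 18.4 CPM against 0 in all mock libraries, at least 211-fold higher (adjusted P = 1.75e-09).

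Jasmonate genes were higher in 13 of 29 members and lower in 2 (median 1.76, with 1 lower without mock day 15 replicate 1). Of the 9 members outside the hormone tables, 0 were higher and 2 lower. TIFY 9 (MA_15372g0010), of the JAZ repressor family of jasmonate signalling, had 19.9, 15.4 and 22.4 CPM against 0 in all mock libraries, at least 302-fold higher. An allene oxide synthase of jasmonate synthesis (MA_10030456g0010) was called lower, at 7.92, 10.5 and 15.7 CPM against 56.3, 22.1 and 24.2 CPM. Without mock day 15 replicate 1 its log2 fold change moved from -1.59 to -1.03 and the call was lost (adjusted P = 0.0784). Genes of abscisic acid signalling and late embryogenesis abundant (LEA) proteins, which protect cells against water loss, were higher in 11 of 37 members and lower in none (median 0.73), against 33.5% of all described genes. LEA3-1 (MA_10433606g0010) had 19.5, 40.6 and 34.9 CPM against 2.21, 3.70 and 3.96 CPM (log2 fold change 3.27, adjusted P = 6.15e-07).

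Chitinases and pathogenesis-related (PR) proteins, which act against fungi and are also raised by wounding and hormones in other plants, were higher in 30 of 42 members (median 3.90, or 3.72 with bounds). They summed to 5710, 5160 and 5130 CPM under BAP+IAA and to 238, 184 and 228 CPM in the mock libraries. Only 4 members lie outside the hormone tables, of which 1 was higher and 1 lower. A PR-5-like gene (MA_19953g0020) had 1020, 1170 and 1230 CPM against 2.21, 0.364 and 1.08 CPM (log2 fold change 9.85, SE 1.48, adjusted P = 5.08e-06). The 1 lower member, PR-10 gene MA_10429068g0010, had 17.2, 9.29 and 20.4 CPM against 74.2, 42.9 and 82.6 CPM. It was not called without BAP+IAA day 15 replicates 1 or 2 (adjusted P = 0.0517 and 0.0912) or without mock day 15 replicate 3 (adjusted P = 0.0600).

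Glutathione S-transferases, which conjugate toxins and reactive compounds, were higher in 24 of 31 members (median 2.98) and lower in 1, whose call was lost in 5 of the 6 fits without 1 of these libraries, all but the one without BAP+IAA day 15 replicate 3. Outside the hormone tables, 2 of 6 members were higher and 1 lower. A glutathione S-transferase (MA_181500g0010) had 43.9, 26.3 and 69.7 CPM against 0.0596, 0.364 and 0.504 CPM (log2 fold change 7.25, SE 0.78, adjusted P = 3.11e-08). Receptor kinases, which sense ligands at the cell surface, were higher in 85 of 207 members and lower in 23 (median 1.04), the latter being 14 without BAP+IAA day 15 replicate 3. Of the 90 receptor kinases outside the hormone tables, 24 were higher and 18 lower. Receptor kinase Xa21 (MA_10436896g0010), named after a rice resistance protein, fell to 1.29, 1.53 and 1.03 CPM from mock levels between 11.8 and 13.3 CPM (log2 fold change -3.26, SE 0.28, adjusted P = 2.40e-10).

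NBS-LRR resistance proteins, intracellular receptors of pathogen effectors, were higher in 20 of 69 members and lower in 6 (median 0.71), a share near that of all described genes. Of the 20 members outside the hormone tables, 0 were higher and 4 lower. The disease resistance gene MA_156769g0010, of the At4g33300 type, had 8.63, 16.9 and 8.60 CPM against 0 in all mock libraries of day 15, at least 177-fold higher. It was present in the mock libraries of day 10, at 5.85, 1.49 and 0.866 CPM. BAP alone gave 2.14, 17.9 and 30.9 CPM on day 15. WRKY factors, regulators of defence and senescence, were higher in 10 of 21 members and lower in 1 (median 1.28). Among the 8 WRKY members outside the hormone tables, 1 was higher and 0 lower. The WRKY gene MA_179641g0010 had 35.3, 50.8 and 32.2 CPM against 0.537, 0 and 0.0720 CPM (log2 fold change 7.49, adjusted P = 2.52e-07).

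The cell division list had 5 of 41 members higher and none lower, a share near that of all genes. Its fitted log2 fold change was positive in 34 members and negative in 7, and its median of 0.48 lay below the 0.71 of all described genes. The count rose to 8 without BAP+IAA day 15 replicate 2. PaCDKB2;2-like (MA_920994g0010), a kinase of the G2 to mitosis transition, had 74.9, 67.7 and 71.7 CPM against 57.6, 55.9 and 54.5 CPM. Its groups did not overlap and its adjusted P was 0.0108, yet its log2 fold change of 0.35 (SE 0.11) was under the fold limit. Cytosolic ribosomal proteins were higher in 9 of 71 members and lower in none, again near the share of all genes, and all 71 had a positive log2 fold change, with a median of 0.79. They summed to 20300, 19200 and 20500 CPM against 12400, 11200 and 11900 CPM. Because the median lies just under the fold limit, the count moved with single libraries, to 4 without BAP+IAA day 15 replicate 3 and to 5 without mock day 15 replicate 2.

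Heat shock proteins were split by type. Of 20 small heat shock members, chaperones that bind unfolded proteins, 10 were lower and none higher, while of 13 members of 70 kDa 3 were higher and none lower. Over the whole list, 4 of 41 were higher (2 without BAP+IAA day 15 replicate 3) and 10 lower, with a median of -0.04, and the summed level of 2460 to 2560 CPM lay within the 2330 to 3320 CPM of the mock libraries. The class I gene MA_10433227g0010 had 92.5, 51.5 and 75.0 CPM against 339, 614 and 533 CPM (log2 fold change -2.76, SE 0.49, adjusted P = 4.96e-05). The 70 kDa gene MA_10432753g0010 had 5.57, 4.18 and 5.44 CPM against 0.775, 0.607 and 0.432 CPM (log2 fold change 3.04, SE 0.34, adjusted P = 2.70e-08).

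Sugar transporters and cell wall invertases, which feed sink tissues, were higher in 10 of 23 members and lower in 2 (median 1.15), with sums of 1070, 1070 and 1010 CPM against 494, 565 and 558 CPM. Cell wall invertase MA_111103g0010 had 18.4, 8.23 and 3.03 CPM against 1.61, 2.55 and 0.936 CPM. It was not called without BAP+IAA day 15 replicate 1 (log2 fold change 1.71, adjusted P = 0.0732). Flavonoid synthesis was higher in 7 of 28 members and lower in 3 (median 0.41). A flavonoid 3-monooxygenase (MA_10434848g0010) had 66.0, 43.8 and 65.4 CPM against 0.954, 0.971 and 1.01 CPM (log2 fold change 5.89, adjusted P = 1.48e-05), and a dihydroflavonol 4-reductase (MA_10432784g0010) had 2.64, 3.38 and 5.71 CPM against 27.1, 17.7 and 32.5 CPM (log2 fold change -2.72, adjusted P = 8.18e-06).

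**Figure D4:**
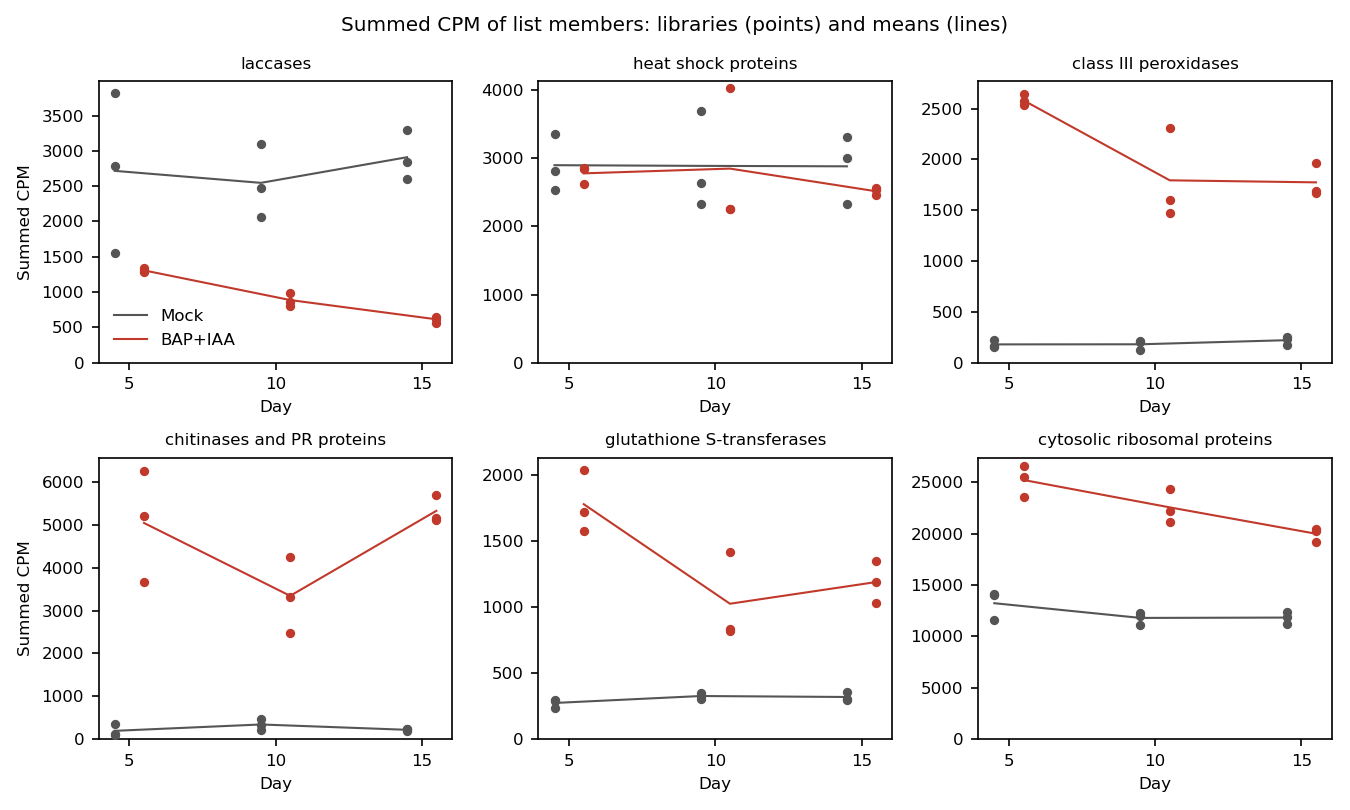
Summed CPM of the tested members of 6 gene lists on days 5, 10 and 15, with 1 point per library and lines through the means of the mock (grey) and BAP+IAA (red) groups of 3 libraries. On day 15 the laccase sums of 566 to 650 CPM lie below those of the mock, the sums of heat shock proteins overlap, and the sums of peroxidases, chitinases and PR proteins, glutathione S-transferases and ribosomal proteins lie above those of the mock.

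Transcription factors linked to regeneration were compared next. PaERF115-like (MA_10274g0010), whose Arabidopsis relative promotes division next to dead cells, had 26.3, 18.7 and 20.7 CPM under BAP+IAA and 0.119, 0.182 and 0.0720 CPM in the mock libraries. On the log2 scale this is 7.35 (SE 0.61, adjusted P = 3.17e-10), the highest among 16 genes named in the study. PaMYB123-like (MA_10048467g0010) had 58.7, 46.3 and 46.6 CPM against 2.21, 2.85 and 1.30 CPM (4.55, SE 0.37, adjusted P = 1.16e-10). PaWIP4-like (MA_29238g0010), of a zinc finger family with roles in root initiation in Arabidopsis, had 82.6, 79.0 and 71.0 CPM against 23.9, 30.5 and 20.7 CPM (1.63, SE 0.19, adjusted P = 7.44e-08). In these 3 genes every treated library lay above every mock library.

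PaPAT1-like (MA_10426489g0020), of the GRAS family branch that acts in wound healing in Arabidopsis, had 19.4, 15.5 and 16.7 CPM against 8.94, 7.29 and 9.50 CPM. The groups did not overlap, and the log2 fold change of 1.00 (SE 0.20, adjusted P = 1.26e-04) was just past the fold limit. It fell below the limit without BAP+IAA day 15 replicate 1 (0.91, adjusted P = 0.00134) and without mock day 15 replicate 2 (0.90, adjusted P = 0.00194). PaWIND1-like (MA_98464g0010), named after a wound-induced factor of Arabidopsis, had 0.411, 1.19 and 1.38 CPM against 5.43, 1.40 and 2.45 CPM. It was not called (log2 fold change -1.65, SE 0.72, adjusted P = 0.0658), whereas it was called without mock day 15 replicate 2 (-2.01, adjusted P = 0.0368).

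The remaining named genes were not called. PaLRP1-like had 13.3, 11.8 and 10.1 CPM against 6.26, 7.41 and 12.2 CPM (log2 fold change 0.45, SE 0.30, adjusted P = 0.241). PaMYB4-like had 8.80, 6.57 and 8.88 CPM against 4.59, 6.98 and 6.55 CPM (0.42, SE 0.33, adjusted P = 0.326). PaWOX13-like had 2.64, 0.929 and 2.75 CPM against 2.27, 2.00 and 1.37 CPM (0.16, SE 0.34, adjusted P = 0.735). In each of these the groups overlapped. The phloem gene PaAPL-like had 4.17, 5.44 and 4.27 CPM against 3.52, 3.52 and 3.60 CPM, without overlap (0.38, SE 0.25, adjusted P = 0.233).

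**Figure D5:**
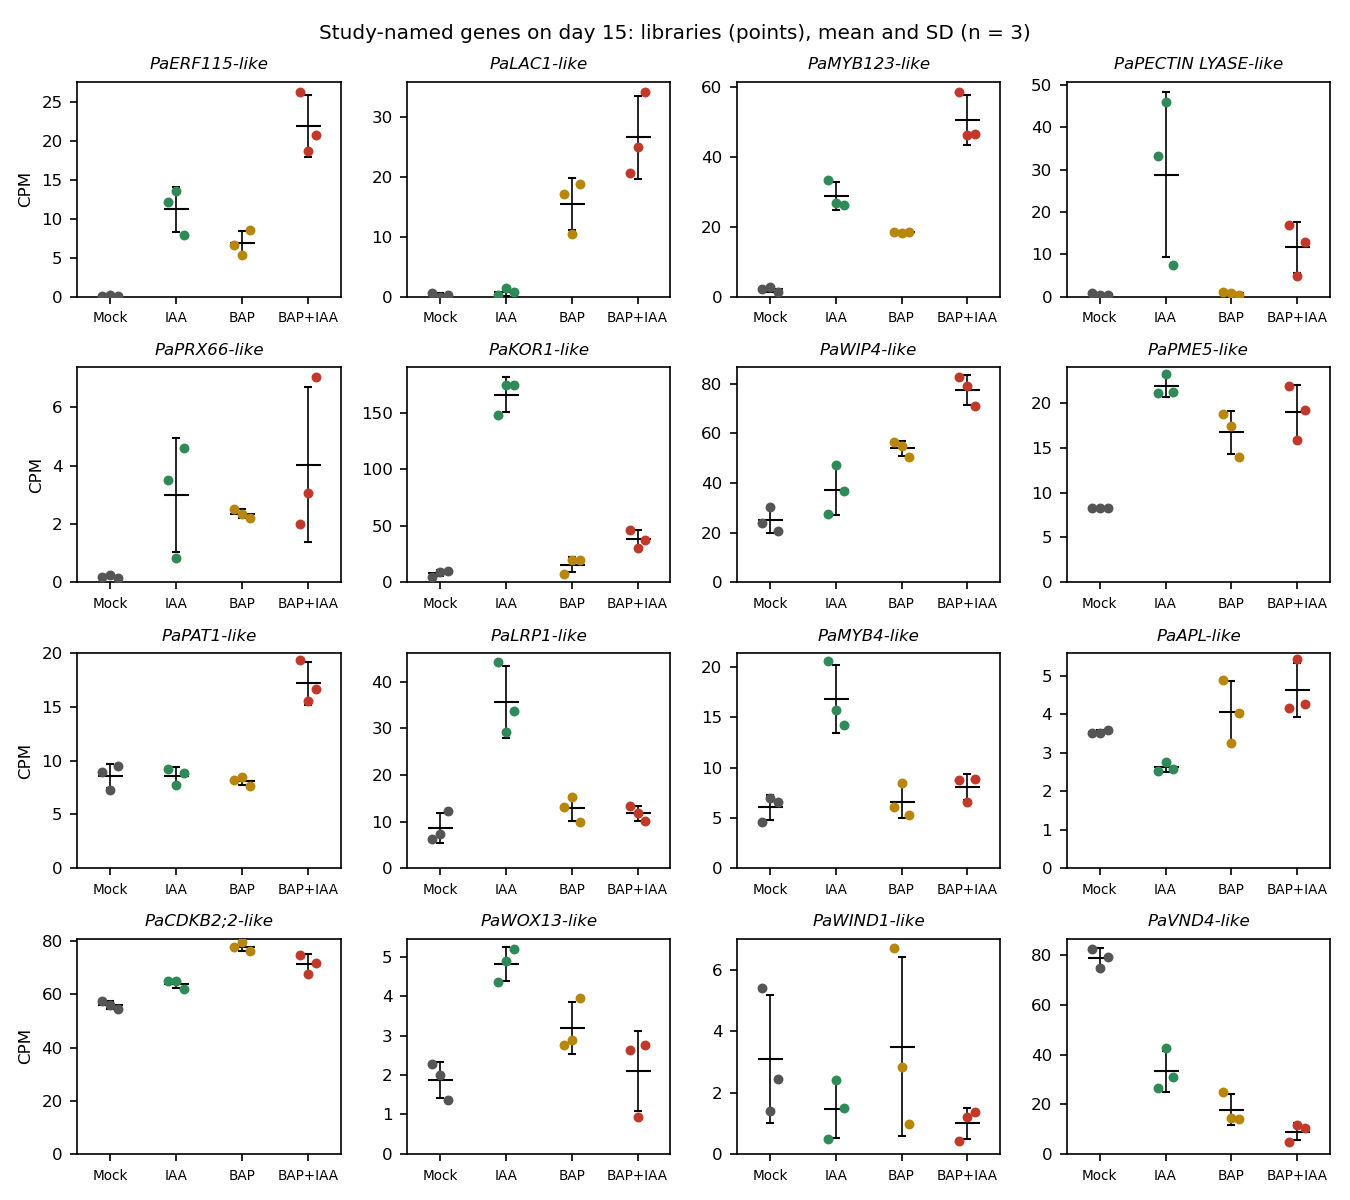
CPM of the 16 genes named by the study in the mock, IAA, BAP and BAP+IAA libraries of day 15, 1 panel per gene ordered by the log2 fold change of BAP+IAA against mock, with 1 point per library and the mean and SD of 3 libraries in black. PaERF115-like comes first, with BAP+IAA libraries at 18.7 to 26.3 CPM against at most 0.182 CPM in the mock, and PaVND4-like, at 4.93 to 11.5 against 75.0 to 82.5 CPM, comes last.

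Of the graft transcription factors, 26 of 61 tested members were higher and 9 lower (median 0.42). LOB domain factors, which act in lateral organ and root formation, were higher in 11 of 18 and lower in 3 (median 1.64). LOB domain-containing 40-like (MA_75731g0010), which is on both lists, had 138, 110 and 243 CPM against 2.44, 3.58 and 4.90 CPM (log2 fold change 5.50, SE 0.43, adjusted P = 7.95e-11). TCP4 (MA_52440g0010), a factor that limits proliferation in Arabidopsis leaves, had 0.645, 0.730 and 0.344 CPM against 4.11, 4.01 and 4.03 CPM (-2.80, SE 0.33, adjusted P = 5.28e-08). AP2/ERF factors were higher in 9 of 26 and lower in 2. Both lower calls were lost in at least 1 fit, as the lower count was 0 without BAP+IAA day 15 replicates 2 or 3 and 1 without any other of the 6 libraries, and 7 members in all were called without mock day 15 replicate 1.

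To see what each hormone adds in the presence of the other, BAP+IAA was also tested against the single hormones of day 15. All of these comparisons share the BAP+IAA libraries, and the values are therefore set side by side only. Against IAA alone, 16.4% of genes were called, of which 2301 (5.94%) were higher and 4061 (10.5%) lower. Against BAP alone, 6.68% were called, of which 1574 (4.06%) were higher and 1013 (2.62%) lower. The BAP by IAA interaction, which asks whether the joint effect differs from the sum of the single effects on the log2 scale, was called in 6.64% of genes, 913 upward (2.36%) and 1659 downward (4.28%). In 93 of the latter the mock libraries were all at 0, and the size of a fitted interaction then depends on the prior count.

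Laccases were lower than with IAA alone in 39 of 62 members and higher in 4, with a median log2 fold change of -2.62, and lower than with BAP alone in 17 and higher in 4 (median -0.86). Their interaction had a median of 0.01, with 1 member upward and 8 downward. Summed levels were 1340, 1760 and 1340 CPM under IAA and 701, 730 and 496 CPM under BAP, so the BAP+IAA sums of 566 to 650 CPM lay below the first and within the range of the second. For AF132123_1laccase (MA_10435604g0010) the means were 194 ± 139 CPM under IAA, 10.2 ± 9.86 CPM under BAP and 2.01 ± 0.706 CPM under both (SD, n = 3). BAP+IAA was lower than either, by log2 fold changes of -6.61 (adjusted P = 2.77e-07) and -2.36 (adjusted P = 0.0342). The call against BAP was lost without BAP day 15 replicate 1 (-1.21, adjusted P = 0.394) and without BAP+IAA day 15 replicates 1, 2 or 3 (adjusted P = 0.119, 0.0864 and 0.0699). PaVND4-like followed the same order, at 33.2 ± 8.33, 17.9 ± 6.16 and 8.93 ± 3.52 CPM, with log2 fold changes of -1.90 against IAA (adjusted P = 3.36e-06) and just past the limit of -1 against BAP (adjusted P = 0.0114). The log2 fold change against BAP fell short of the limit without BAP+IAA day 15 replicate 1 (-0.71) and without BAP day 15 replicate 1 (-0.68). PaLAC1-like was higher than with IAA alone (5.08, adjusted P = 7.49e-05) and not called against BAP alone (0.78, SE 0.68, adjusted P = 0.517).

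PaPAT1-like differed from all other groups. Its means were 8.58 ± 1.15 CPM in the mock, 8.58 ± 0.788 CPM under IAA, 8.12 ± 0.413 CPM under BAP and 17.2 ± 1.99 CPM under both. The log2 fold change of BAP+IAA was 1.00 against IAA (SE 0.20, adjusted P = 2.14e-04) and 1.08 against BAP (SE 0.20, adjusted P = 3.28e-04), and the interaction was 1.08 (SE 0.28, adjusted P = 0.0115). Without BAP+IAA day 15 replicate 1 these went just under the fold limit, to 0.91 against IAA, 0.99 against BAP and 0.99 for the interaction, and the value against IAA was 0.93 without IAA day 15 replicate 2. PaERF115-like had 11.2 ± 2.93 CPM under IAA and 6.84 ± 1.63 CPM under BAP, below the 21.9 ± 3.92 CPM under both. It passed the test against BAP (1.68, adjusted P = 0.00283) and was under the fold limit against IAA (0.97, adjusted P = 0.0464), while its interaction was -4.70 (adjusted P = 2.32e-04). From 6 counts over the mock libraries, IAA alone and BAP alone already raised it by 6.38 and 5.67 on the log2 scale. The negative interaction means a joint rise below the sum of these, not a joint level below either.

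Several genes had a lower mean with both hormones than with IAA alone, and not all of these differences were called. PaKOR1-like had 166 ± 15.3 CPM under IAA, 15.7 ± 6.78 CPM under BAP and 38.3 ± 8.23 CPM under both, which is -2.12 against IAA (adjusted P = 1.80e-05) and 1.29 against BAP (adjusted P = 0.0101). The latter was not called without BAP day 15 replicate 1 (0.97, adjusted P = 0.0768). PaLRP1-like had 35.7 ± 7.69 CPM under IAA, 12.8 ± 2.68 CPM under BAP and 11.7 ± 1.60 CPM under both (-1.60 against IAA, adjusted P = 1.17e-04). PaWOX13-like had 4.81 ± 0.423 CPM under IAA, 3.20 ± 0.662 CPM under BAP and 2.11 ± 1.02 CPM under both. This is -1.18 against IAA (adjusted P = 0.00503), or -0.84 and not called without BAP+IAA day 15 replicate 2. Its interaction was -1.94 (adjusted P = 0.00537). PaMYB4-like had 16.8 ± 3.36 CPM under IAA and 8.08 ± 1.31 CPM under both (-1.06, adjusted P = 0.0137), a call lost without BAP+IAA day 15 replicate 2 (-0.94) or IAA day 15 replicate 1 (-0.89). PaPECTIN LYASE-like had 28.9 ± 19.6 CPM under IAA, 0.755 ± 0.349 CPM under BAP and 11.6 ± 6.10 CPM under both, and BAP+IAA was called against BAP (3.94, adjusted P = 2.66e-04) and not against IAA (-1.31, SE 0.52, adjusted P = 0.0620).

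Most members of the chitinase, peroxidase, auxin, glutathione S-transferase and sugar lists come from the hormone tables of genes raised by IAA. That choice favours high levels under IAA, and so lower values of BAP+IAA against IAA and of the interaction. The counts of these lists below are therefore no independent evidence of a direction. Among the lists, chitinases and PR proteins had 2 members higher and 20 of 42 lower than with IAA alone, and 32 of 42 with an interaction called below 0 (3 of them with all mock libraries at 0) and none called above. Their median log2 fold changes against mock were 4.65 under IAA, 3.60 under BAP and 3.90 under both, from low mock sums of 184 to 238 CPM. Against BAP alone 3 members were higher and none lower. The negative interactions mean joint rises below the sum of the single log2 rises, and by themselves no lower level. Class III peroxidases had 9 members higher and 24 of 53 lower than with IAA alone, with medians against mock of 3.77, 1.03 and 3.15. Auxin genes had 22 of 48 members higher and none lower than with BAP alone, and glutathione S-transferases 16 of 31 higher and none lower. Only 5 and 6 members of these lists lie outside the hormone tables, so a rise with added IAA was partly set by their choice. Sugar transport and cleavage genes had 13 of 23 members lower and 1 higher than with IAA alone. Small shifts were seen for ribosomal proteins, with 1 of 71 members higher and none lower than with IAA and none called against BAP.

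The largest interactions among described genes called against mock were found where 1 group stood apart. The thaumatin gene MA_10429511g0010 of the PR family had 69.1 ± 59.0 CPM under IAA, 2.74 ± 1.45 CPM under BAP and 3.11 ± 1.49 CPM under both, with 0 in all mock libraries. D-arabinono-1,4-lactone oxidase MA_155791g0010 had 65.9 ± 30.4 CPM under IAA, 0.471 ± 0.531 CPM under BAP and 1.63 ± 2.09 CPM under both, again with 0 in the mock. Its call against mock was lost without BAP+IAA day 15 replicate 1 (adjusted P = 0.0571) and also in the fit on the 6 libraries alone. In the opposite direction, a 10-deacetylbaccatin III-10-O-acetyl transferase-like gene (MA_10392111g0010) had 9.27 ± 7.46 CPM under both, 2.09 ± 1.40 CPM in the mock, 0.110 ± 0.190 CPM under IAA and 0.143 ± 0.0350 CPM under BAP. Its interaction was 10.23 (SE 1.69, adjusted P = 2.56e-04). Its call against mock (2.13, adjusted P = 0.0440) was lost without BAP+IAA day 15 replicates 1 or 3 (adjusted P = 0.169 and 0.119) and without mock day 15 replicates 2 or 3 (adjusted P = 0.0868 and 0.157). The fit on the 6 libraries alone did not call it either (2.12, adjusted P = 0.150).

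Whether the response had changed since day 5 was tested as the difference between the fold change on day 15 and that on day 5, 4 groups that share no library. It was called in 3.18% of genes, 538 upward (1.39%) and 695 downward (1.79%). Laccases accounted for 18 of the downward calls and 2 of the upward calls among 62 members (median change -1.71), and their median log2 fold change against mock was -1.94 on day 5, -3.53 on day 10 and -3.94 on day 15. Their summed level was 1280 to 1340 CPM under BAP+IAA on day 5, 807 to 991 CPM on day 10 and 566 to 650 CPM on day 15. The mock libraries had 1550 to 3820, 2060 to 3100 and 2600 to 3290 CPM, so the mock varied most on day 5. PaVND4-like changed by -2.71 (SE 0.37, adjusted P = 2.20e-05), from -0.44 on day 5. Lyases had 7 of 32 members upward and none downward, and beta-1,4-glucanases 4 of 23 upward and none downward. None of the 71 ribosomal proteins and 1 of the 42 chitinases and PR proteins (downward) were called for a change between the days. The ribosomal median log2 fold change was 0.94 on day 5 and 0.79 on day 15. Its median change of -0.16 was well under the fold limit of the calls.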

How the data were processed

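Total RNA of the middle hypocotyl was made into poly(A) libraries by a sequencing company. The authors deposited raw counts per gene for 36 libraries, and per the labels the tools fastp, STAR, HTSeq and DESeq2 were used. How reads with several alignments were counted is not stated. The DESeq2 calls of the authors were not used. The count table had 0 columns without a sample.

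Counts were tested with edgeR 4.0.16 in R 4.3.3 (quasi-likelihood test, TMM, filterByExpr) with 12 group means over 36 libraries, which leaves 24 residual degrees of freedom. Of 70736 genes, 17643 had no count in any library, and the 38732 tested genes held 99.9% of counts. Total counts ranged from 13188942 to 23110495, and the common biological coefficient of variation was 20.9%. P-values were adjusted by Benjamini-Hochberg over all tested genes. The test was checked on simulated counts. Alternatives were relative log expression (RLE) size factors in edgeR, no filter, a replicate block and an adjusted P of 0.01. Others were TREAT, DESeq2 1.42.0, a fit on 6 libraries and leaving out each library.

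The members and lists were chosen with earlier results of these data known. Genes were named by a rule. It takes 16 genes named in the study. Among called genes averaging 1 CPM or more without overlap it takes the 10 described genes that rose most, the 10 that fell most and 2 genes without a description in each direction. It adds up to 2 called members per list in each direction and the 3 described genes with the highest and the 3 with the lowest interaction. Genes named outside it are marked. Intervals of ratios cover counting error only. No genome or sequences were used.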

Additional observations from a re-analysis of the deposited data

Results flagged for a closer look

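The genes below had a response to BAP+IAA on day 15 that differed from that on day 5, by the test of the difference itself in edgeR's quasi-likelihood fit with Benjamini-Hochberg adjustment. Values are the day 15 minus the day 5 log2 fold change, and no explanation was tested.

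Of the laccases, MA_57140g0010 changed by -7.18 (adjusted P = 0.00157), MA_10435604g0010 by -6.66 (adjusted P = 5.35e-05) and MA_11289g0010 by -5.03 (adjusted P = 0.00400). MA_10431084g0010 changed by -10.01 (adjusted P = 5.27e-06) and MA_8866650g0010 by -6.13 (adjusted P = 0.00472), and since both were at 0 under BAP+IAA on day 15 these sizes depend on the prior count. The second was not called without BAP+IAA day 5 replicate 3 (-4.76, adjusted P = 0.0550). MA_224931g0010 (-11.20, adjusted P = 5.07e-04) and MA_401686g0010 (-10.74, adjusted P = 0.00246), which have no description, were also at 0 under BAP+IAA on day 15. Their sizes likewise depend on the prior count. The laccase MA_170004g0010 went from -3.56 to 4.45, a change of 8.01 (adjusted P = 0.00721) that was not called without BAP+IAA day 15 replicate 1 (6.04, adjusted P = 0.146) or mock day 5 replicate 1 (5.24, adjusted P = 0.0676).

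PaVND4-like changed by -2.71 (adjusted P = 2.20e-05), arogenate dehydratase MA_14041g0010 by -2.79 (adjusted P = 0.00421) and receptor kinase Xa21 MA_10436896g0010 by -1.83 (adjusted P = 0.00281), all of them lower than mock on both days by the fitted value. Expansin A4 MA_134592g0010 went from 0.92 to -1.54, a change of -2.46 (adjusted P = 0.00142). Polygalacturonase MA_10862g0010 went from 0.38 to -1.32, a change of -1.70 (adjusted P = 0.0126). PaWOX13-like went from 1.84 to 0.16, a change of -1.68 (adjusted P = 0.0323). That call was lost without any 1 of 7 of the 12 libraries (adjusted P from 0.0603 to 0.0939), BAP+IAA day 15 replicate 2, mock day 15 replicates 1 and 2, BAP+IAA day 5 replicates 1 and 3 and mock day 5 replicates 1 and 2. The 70 kDa heat shock gene MA_10432753g0010 went from 0.65 to 3.04, a change of 2.39 (adjusted P = 0.00174).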

How the results depend on the processing

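No named gene past the threshold changed direction. Of the list medians, that of xyloglucan endotransglucosylases changed sign without BAP+IAA day 15 replicate 3, that of glucanases without this library or mock day 15 replicate 3, and that of heat shock proteins without mock day 15 replicates 1 or 2. Under TREAT, which tests against a log2 fold change of 1, 5131 genes were called against mock (2642 higher, 2489 lower), 3482 against IAA (1089, 2393), 668 against BAP (475, 193), 797 for the interaction (173, 624) and 263 for the change since day 5 (53, 210). At an adjusted P of 0.01 the last 3 were 1667 (1039, 628), 1480 (539, 941) and 658 (226, 432). Against mock, leaving out 1 library gave 8133 to 8405 called genes. The lists under TREAT had fewer called members: PMEs 16, glucanases 8, lyases 12, auxin 19, cytokinin 3, flavonoid synthesis 6, cell division 1, ribosomal proteins 0, NBS-LRR 13, receptor kinases 65, WRKY 7, AP2/ERF 6, heat shock 8, ABA and LEA 4, ethylene 5, jasmonate 7 and polygalacturonases 3. At an adjusted P of 0.01 AP2/ERF had 6 and ABA and LEA 7. With no filter the cytokinin median was 3.96.

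Leaving out 1 library moved list medians over these ranges: ABA and LEA 0.48 to 1.45, AP2/ERF 0.32 to 2.13, WRKY 1.03 to 1.39, auxin 1.39 to 1.62, chitinases and PR proteins 3.67 to 4.25, peroxidases 2.75 to 3.24, cytokinin 4.56 to 6.42, dirigent 2.64 to 3.19, ethylene 2.15 to 4.64, expansins 2.31 to 3.32, glutathione S-transferases 2.71 to 3.21, graft factors 0.38 to 0.53, heat shock -0.048 to 0.16, jasmonate 1.17 to 2.07, monolignol 0.13 to 0.36, receptor kinases 0.87 to 1.17, sugar 0.85 to 1.32, xyloglucan endotransglucosylases -0.10 to 0.43 and glucanases -0.06 to 0.25. Called members ranged from 7 to 13 for AP2/ERF, 5 to 8 for cell division and 4 to 13 for ribosomal proteins. The causes were not tested.

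The replicate numbers do not show that samples are paired: correlations of same-numbered BAP+IAA and mock libraries were 0.109, 0.0722 and 0.0391, although each library correlated best with its own number. With a replicate block 8834 genes were called against mock, 6520 against IAA, 2665 against BAP, 2807 for the interaction and 1299 for the change since day 5. Of the 124 named genes, 2 lost their call against mock. Depth limits folds of genes at or near 0 in a group.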
